A study of Homo sapiens with 4 samples.

Results

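Small nucleolar RNA (snoRNA) genes were examined by box class in Daoy cells, an established human medulloblastoma line, after knockdown of PELP1. Every row whose gene symbol begins with SNORD or SNORA followed by a digit was taken, which gave 364 of the 23228 gene rows. Of these, 258 rows were box C/D genes (SNORD) and 106 were box H/ACA genes (SNORA). RNA was sequenced from cells stably expressing an shRNA against PELP1 (n = 2 libraries) and from cells stably expressing a control shRNA (n = 2 libraries). Both shRNAs were carried by lentivirus in the same line, grown in the same serum-supplemented medium. One line was used, and the labels name neither the shRNA sequence nor separate cultures for the duplicates. The p-values below are thus set against the scatter of duplicate libraries alone, and that scatter may be technical.

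snoRNAs are short, stable RNAs of the nucleolus that guide chemical modification of ribosomal RNA by base pairing. Box C/D snoRNAs carry FBL, the methyltransferase of ribose groups, and box H/ACA snoRNAs carry DKC1, the pseudouridine synthase. A few members serve the cleavage of the ribosomal RNA precursor instead. Most human snoRNAs are released from introns of host genes, many of which encode ribosomal proteins or are long non-coding RNAs such as GAS5 and SNHG1. PELP1, a scaffold protein and nuclear receptor coregulator, belongs to a nucleolar complex that acts in maturation of the large ribosomal subunit.

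The sequences below, read from GRCh37 (hg19), show what sets the classes apart in members that differed from each other in fold change, coverage and host. Capitals mark box C (TGATG) and box D (CTGA) in the box C/D genes and the ACA box in the box H/ACA genes. SNORD34, SNORD110 and SNORD78 are called box C/D genes from 3 different hosts, and SNORD36A is among the box C/D genes with the most counts. SNORA70 and SNORA10 are called box H/ACA genes, and SNORA63 is an abundant one that did not pass the test. All are written 5′ to 3′ on the strand given.
SNORD34, chr19:49994161-49994231 (+ strand): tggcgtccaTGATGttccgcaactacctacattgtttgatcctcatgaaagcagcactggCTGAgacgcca
SNORD110, chr20:2634858-2634932 (+ strand): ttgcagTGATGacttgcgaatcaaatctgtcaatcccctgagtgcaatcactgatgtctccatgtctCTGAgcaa
SNORD78, chr1:173834760-173834824 (- strand): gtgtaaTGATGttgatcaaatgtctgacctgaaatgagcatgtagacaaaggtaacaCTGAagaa
SNORD36A, chr9:136217311-136217383 (+ strand): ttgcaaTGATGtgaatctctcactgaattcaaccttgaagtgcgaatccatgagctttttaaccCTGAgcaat
SNORA70, chrX:153628622-153628756 (+ strand): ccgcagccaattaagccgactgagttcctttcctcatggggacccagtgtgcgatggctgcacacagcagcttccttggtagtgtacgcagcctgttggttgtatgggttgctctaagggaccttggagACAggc
SNORA10, chr16:2012335-2012467 (- strand): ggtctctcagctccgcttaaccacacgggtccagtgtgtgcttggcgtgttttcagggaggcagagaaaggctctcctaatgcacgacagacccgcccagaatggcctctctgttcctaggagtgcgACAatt
SNORA63, chr3:186505089-186505220 (+ strand): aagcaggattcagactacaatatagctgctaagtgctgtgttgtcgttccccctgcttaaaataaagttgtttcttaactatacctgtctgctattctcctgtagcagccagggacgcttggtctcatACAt

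Each of the 7 lies in an intron of its host's canonical transcript in GENCODE. Each also overlaps an exon of at least 1 other transcript of its host, SNORD34 of 7 and SNORA70 of 4. SNORD34 is in intron 5 of 7 of RPL13A, and SNORD36A in intron 5 of 7 of RPL7A. SNORD110 is in intron 3 of 11 of NOP56, and SNORD78 in intron 6 of 11 of GAS5. SNORA70 is in intron 5 of 7 of RPL10, SNORA10 in intron 6 of 6 of RPS2, and SNORA63 in intron 8 of 10 of EIF4A2. The ends of 6 of them stand close to the next exon: SNORA70 48 bases before it, SNORA10 and SNORA63 63 bases, SNORD34 65 bases, SNORD36A 68 bases and SNORD78 74 bases.

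Of the 364 genes, 303 could be placed on GRCh37, 214 of box C/D and 89 of box H/ACA. TGATG was found within the first 20 bases of 193 of the 214 box C/D genes (90.2%), against 1.1% of the box H/ACA genes and 2.3% of equally long windows upstream of the box C/D genes. CTGA stood within the last 15 bases of 94.9% of the box C/D genes, against 3.4% of the box H/ACA genes and 7.5% of the upstream windows. ACA stood within the last 8 bases of 82 of the 89 box H/ACA genes (92.1%), against 5.1% of the box C/D genes and 6.7% of windows upstream of the box H/ACA genes. On the opposite strand, TGATG was found in 1.4% and CTGA in 5.1% of the box C/D genes, and ACA in 12.4% of the box H/ACA genes. The symbols thus sorted the genes as their boxes do. Box C/D genes were short, with a median of 81.5 bases (64 to 237), and box H/ACA genes longer, with a median of 134 bases (121 to 249).

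The files held raw counts, and library depth ranged between 24052542 and 29221640 reads assigned to genes. PELP1, the target, had 55.6 and 49.7 CPM in the PELP1 shRNA libraries, against 168.24 and 185.23 CPM in the control shRNA libraries, where CPM is the count relative to the TMM-scaled library size. It fell by 1.75 ± 0.05 on the log2 scale (SE; edgeR quasi-likelihood test with Benjamini-Hochberg adjustment, FDR = 1.54e-33). Of 7 cerebellar lineage and medulloblastoma markers 5 were tested, of which GLI2 fell by 0.71 ± 0.07 (SE; edgeR, FDR = 2.16e-13). OTX2 (log2 fold change 0.48 ± 0.14, FDR = 0.00193), GLI1 (0.80 ± 0.33, FDR = 0.0332) and ZIC2 (0.26 ± 0.09, FDR = 0.00877) rose in the same edgeR test, and ZIC1 did not pass (-0.15 ± 0.09, FDR = 0.122). ZIC1 had 17.6 and 20.4 CPM in the PELP1 shRNA libraries and 20.2 and 21.9 CPM in the control shRNA libraries. ATOH1 and NEUROD1 stayed at or under 0.09 CPM in the PELP1 shRNA libraries and 0.23 CPM in the control shRNA libraries. Of 4 blood and endothelial markers, the endothelial PECAM1 and VWF rose, and PTPRC and CD3E were too low to test (at or under 0.30 CPM in the PELP1 shRNA libraries and 0.26 CPM in the control shRNA libraries). The summed level of the 4 was 4.11 and 3.37 CPM in the PELP1 shRNA libraries and 1.58 and 1.13 CPM in the control shRNA libraries, and their part in the snoRNA results was not tested.

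Reads in snoRNA genes were a small and lower share of the PELP1 shRNA libraries in both classes. The box C/D genes summed to 73.7 and 76.3 CPM with the PELP1 shRNA, against 108.9 and 109.9 CPM with the control shRNA. Both PELP1 shRNA libraries stood below both control libraries, with means of 75 ± 1.84 CPM with the PELP1 shRNA and 109.4 ± 0.662 CPM with the control shRNA (SD, n = 2 each). The ratio of PELP1 shRNA to control shRNA was 0.685, with a 95% counting interval of 0.658 to 0.713. The box H/ACA genes summed to 37.1 and 36.4 CPM with the PELP1 shRNA, against 51.1 and 51.6 CPM with the control shRNA, a ratio of 0.716 (0.676 to 0.759). Here too the groups did not overlap, with means of 36.8 ± 0.489 CPM with the PELP1 shRNA and 51.4 ± 0.314 CPM with the control shRNA (SD, n = 2 each). Raw sums were 2224 and 2103 counts of box C/D genes in the PELP1 shRNA libraries and 2546 and 2827 in the control shRNA libraries. For box H/ACA genes they were 1120 and 1004 counts in the PELP1 shRNA libraries and 1195 and 1327 in the control shRNA libraries. No test was run on these sums, since 2 libraries against 2 cannot give an exact permutation p below 0.333. Counting intervals throughout cover counting error only, since the labels name no molecular identifiers. In bulk RNA, less RNA per cell and fewer cells with that RNA cannot be told apart.

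**Figure D1:**
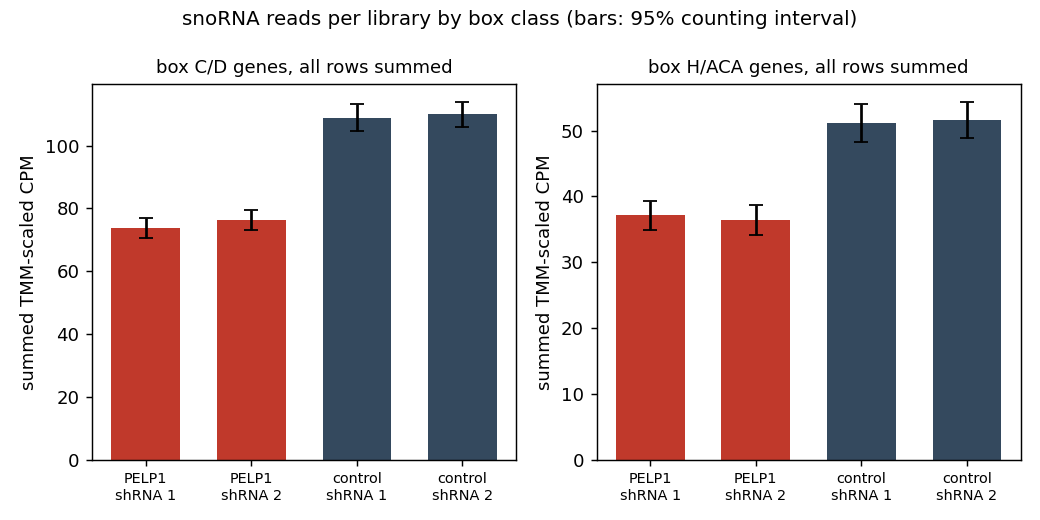
Summed TMM-scaled CPM of all box C/D rows (left) and all box H/ACA rows (right) in each library, with 95% counting intervals as bars. In both classes the 2 PELP1 shRNA libraries (73.7 and 76.3 CPM, 37.1 and 36.4 CPM) lie below the 2 control shRNA libraries (108.9 and 109.9 CPM, 51.1 and 51.6 CPM).

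The balance of the classes differed little between the groups. Box C/D reads were 1.99 and 2.10 times the box H/ACA reads in the PELP1 shRNA libraries, against 2.13 and 2.13 times in the control shRNA libraries. The counting intervals of these 4 values overlapped, from 1.85 to 2.14 and 1.94 to 2.26 with the PELP1 shRNA and from 1.99 to 2.28 and 2.00 to 2.28 with the control shRNA. The lower level of box C/D reads relative to box H/ACA reads in PELP1 shRNA cells was therefore not separable from counting error at this depth. Scaling moved the size of both class ratios: by library size alone they were 0.730 for box C/D and 0.762 for box H/ACA, while the median log2 fold change of all genes moved to 0.09, against 0.00 with TMM.

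Gene by gene, 231 of the 364 members had at least 1 count, and 105 passed the filter on low counts, 70 of box C/D and 35 of box H/ACA. These members held few reads, with a median of 90.5 counts over the 4 libraries in box C/D genes (33 to 614) and of 87 counts in box H/ACA genes (31 to 409). In box C/D, 23 of the 70 genes fell (32.9%) and 0 rose. In box H/ACA, 7 of the 35 genes fell and 0 rose. Of all 14972 genes tested 29.5% fell and 28.6% rose, 58.1% in either direction, so the share of members that fell stood near that of the table. Among the 3870 genes in the abundance range of these members, 15.9% fell and 25.8% rose. At an unadjusted p under 0.05, 30 box C/D and 9 box H/ACA genes were lower and 0 were higher. DESeq2 and limma-voom also found 0 higher members in either class.

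Fold changes below 0 were found in 64 of the 70 box C/D genes and 29 of the 35 box H/ACA genes. Their medians were -0.62 (-1.69 to 0.24) and -0.46 (-1.49 to 0.37) on the log2 scale, beside 0.00 over all genes tested. Over all members with a count, the 2 PELP1 shRNA libraries lay below both control libraries in 73 of 146 box C/D and 36 of 85 box H/ACA genes. They lay above both in 5 and 3, and no share over all genes with a count was taken to set beside these. Among the members tested, the PELP1 shRNA libraries lay below both control libraries in 54 of 70 box C/D genes (77.1%) and 22 of 35 box H/ACA genes (62.9%), and above both in 1 and 2. Over all genes tested these shares were 38.7% lower and 39.0% higher. Members that passed the filter through the control libraries alone could hardly be higher with the PELP1 shRNA, and there were 16 such box C/D and 6 such box H/ACA genes. In each class 1 gene passed through the PELP1 shRNA libraries alone. The member counts, medians and shares above include all of these, so their direction leans in part on the filter. Among the 51 box C/D genes that passed in both groups 19 fell, and among the 27 box H/ACA genes that passed in both groups 6 fell.

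**Figure D2:**
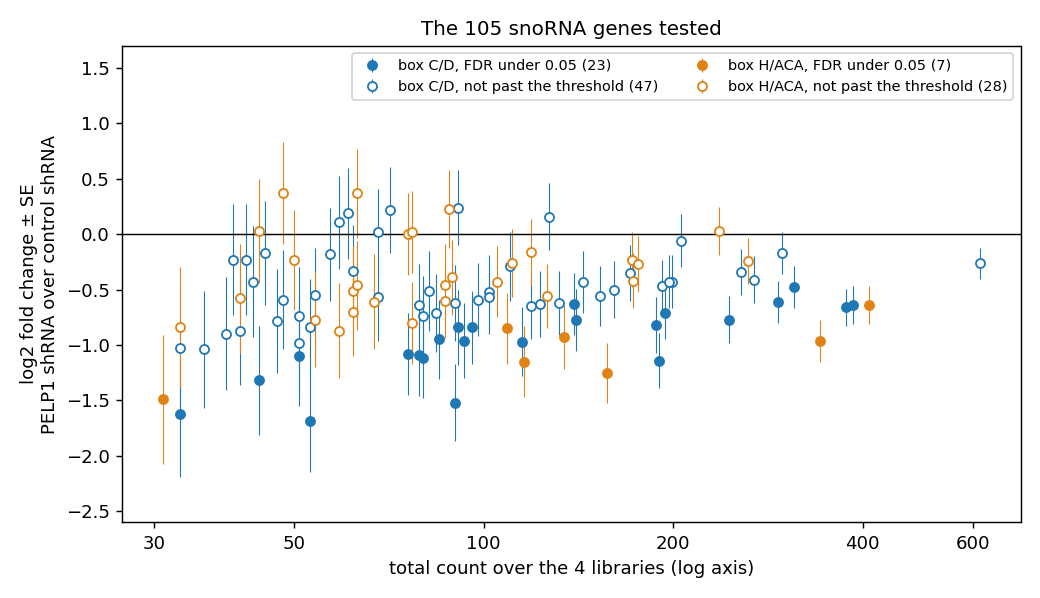
Log2 fold change of PELP1 shRNA over control shRNA, with SE, of the 105 snoRNA genes tested, against their total count over the 4 libraries (log axis); filled points passed FDR 0.05. The 23 box C/D and 7 box H/ACA genes that passed all lie below 0, and the 12 genes above 0 are all open points.

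These calls rest on small counts and on the test used. DESeq2 called 2 box C/D and 3 box H/ACA genes lower (Benjamini-Hochberg adjusted), among 140 members with an adjusted p. Over the whole table it called 3384 of 15802 genes lower. An assumed biological variation of 20%, in place of the estimated 2.99%, left 3 and 3 members, beside 640 of 14972 genes lower. The 5 that DESeq2 called were SNORD34, SNORD81, SNORA61, SNORA67 and SNORA70. Without PELP1 shRNA replicate 1 there were 10 box C/D calls, and without control shRNA replicate 2 there were 14.

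Among the box C/D genes, those in ribosomal protein genes held the lowest class ratio. The 37 such genes summed to 15.5 and 15.1 CPM in the PELP1 shRNA libraries, against 24.1 and 23.9 CPM in the control shRNA libraries. That is a ratio of 0.640 (0.585 to 0.698), an interval that overlaps those of the other host classes with host rows. Of 23 tested, 5 fell and 0 rose, beside 29.5% lower and 28.6% higher over all genes tested. SNORD34, which guides ribose methylation of the large-subunit rRNA, had 0.50 and 0.40 CPM with the PELP1 shRNA and 1.20 and 1.40 CPM with the control shRNA. The groups did not overlap, and it fell by 1.52 ± 0.35 on the log2 scale (SE; edgeR, FDR = 1.82e-04). The other 3 snoRNAs of RPL13A did not pass: SNORD32A (log2 fold change -0.71 ± 0.35, SE; edgeR, FDR = 0.0747), SNORD33 (-0.59 ± 0.45, FDR = 0.269) and SNORD35A (-0.98 ± 0.45, FDR = 0.0544).

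SNORD36A, which guides methylation of the small-subunit rRNA, was the best covered of these genes. It had 2.85 and 2.90 CPM in the PELP1 shRNA libraries, against 4.54 and 4.43 CPM in the control shRNA libraries. The pairs lay close together within each group and far apart between groups, with a log2 fold change of -0.64 ± 0.17 (SE; edgeR, FDR = 0.001004). With DESeq2 its adjusted p was 0.0524. SNORD68 in RPL13, with targets in both ribosomal subunits, had 0.63 and 0.87 CPM with the PELP1 shRNA and 1.54 and 1.40 CPM with the control shRNA (log2 fold change -0.97 ± 0.31, SE; edgeR, FDR = 0.00555). Leaving out 1 library ended the call of SNORD68 (adjusted p = 0.0919 with PELP1 shRNA replicate 1 left out and 0.0515 with control shRNA replicate 1 left out).

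Box C/D genes of non-coding hosts held the most reads of any host class, 5149 counts over 74 rows. They summed to 38.2 and 41.2 CPM in the PELP1 shRNA libraries, against 58.1 and 58.4 CPM in the control shRNA libraries (ratio 0.681, 0.644 to 0.719). Of 31 tested, 12 fell and 0 rose. GAS5 and SNHG1 supplied 18 of the 31, and as a ratio of group means the whole class stood at 0.689 without them and 0.686 with them. Over all genes tested 29.5% fell and 28.6% rose, shares that also stand beside the counts for single hosts below.

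GAS5 is a growth-arrest transcript whose introns hold 10 box C/D genes. All 10 had fold changes below 0 and 4 fell. Summed, they had 16.3 and 18.1 CPM in the PELP1 shRNA libraries and 24.4 and 25.9 CPM in the control shRNA libraries. SNORD81 moved most, with 0.93 and 1.38 CPM with the PELP1 shRNA and 2.74 and 2.33 CPM with the control shRNA (log2 fold change -1.14 ± 0.25, SE; edgeR, FDR = 8.15e-05). SNORD76 had 3.02 and 2.54 CPM with the PELP1 shRNA and 4.24 and 4.55 CPM with the control shRNA (-0.66 ± 0.17, edgeR, FDR = 9.32e-04). SNORD78 had 13 and 14 counts with the PELP1 shRNA and 20 and 29 with the control shRNA (-1.08 ± 0.37, edgeR, FDR = 0.0108). In these 3 genes no PELP1 shRNA library reached a control library, but the call of SNORD78 ended when PELP1 shRNA replicate 1 (adjusted p = 0.0898) or control shRNA replicate 2 (0.167) was left out. SNORD79, named here after its values were seen, also fell (-0.77 ± 0.21, edgeR, FDR = 0.00147).

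SNORD47 was the snoRNA gene with the most counts of all and shares the GAS5 host. It had 4.87 and 5.70 CPM in the PELP1 shRNA libraries, against 5.82 and 6.76 CPM in the control shRNA libraries. The groups were separate by a small margin, and it did not pass the test (log2 fold change -0.26 ± 0.14, SE; edgeR, FDR = 0.106). Members of 1 host transcript thus ranged from -0.26 for SNORD47 to -1.14 for SNORD81. Whether the snoRNAs of GAS5 differ from each other was not tested.

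SNHG1 holds 8 box C/D genes, of which 5 fell and all 8 had fold changes below 0. Their sum was 11.1 and 12.3 CPM in the PELP1 shRNA libraries and 17.3 and 17.4 CPM in the control shRNA libraries. SNORD22, known from frog oocytes for its part in processing of the small-subunit rRNA precursor, had 2.15 and 2.29 CPM with the PELP1 shRNA. With the control shRNA it had 3.04 and 3.69 CPM, so the groups did not overlap (log2 fold change -0.61 ± 0.19, SE; edgeR, FDR = 0.00623). SNORD29 had 2.32 and 2.61 CPM with the PELP1 shRNA and 3.42 and 3.46 CPM with the control shRNA (-0.48 ± 0.19, edgeR, FDR = 0.0240). SNORD22 missed the threshold without control shRNA replicate 2 (adjusted p = 0.128). SNORD29 missed it when scaled by library size alone (adjusted p = 0.0662) and without PELP1 shRNA replicate 1 (0.146), control shRNA replicate 1 (0.0697) or control shRNA replicate 2 (0.0884). The other 3 that fell, SNORD25, SNORD26 and SNORD27, ranged from -0.71 to -0.84 and were named after their values were seen.

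SNORD87 in SNHG6 had the lowest fold change of any member. It had 7 and 7 counts in the PELP1 shRNA libraries, against 22 and 17 in the control shRNA libraries (log2 fold change -1.69 ± 0.46, SE; edgeR, FDR = 0.00116; DESeq2 adjusted p = 0.0623). SNORD50A in SNHG5 had 7 and 11 counts with the PELP1 shRNA and 19 and 14 with the control shRNA (-1.10 ± 0.45, edgeR, FDR = 0.0338). The call of SNORD50A was among the least stable: it ended with no filter on low counts (adjusted p = 0.0506) and without control shRNA replicate 1 (0.301) or PELP1 shRNA replicate 1 (0.275). The 5 genes with the most counts held 20.5% of the counts of the class.

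Of 12 box C/D genes tested in other protein-coding hosts, 6 fell and 0 rose, with a summed ratio of 0.698 (0.631 to 0.772). The shares over all genes tested were 29.5% lower and 28.6% higher. SNORD110 guides methylation of the small-subunit rRNA and lies in NOP56, which itself encodes a core protein of box C/D particles. It had 0.46 and 0.51 CPM with the PELP1 shRNA and 0.98 and 1.13 CPM with the control shRNA (log2 fold change -1.12 ± 0.36, SE; edgeR, FDR = 0.00688). SNORD45A in RABGGTB, a subunit of a prenyltransferase of Rab proteins, had 0.46 and 0.51 CPM with the PELP1 shRNA and 1.20 and 0.89 CPM with the control shRNA (-1.09 ± 0.37, edgeR, FDR = 0.00892). SNORD97 in EIF4G2, a translation factor, had 6 and 8 counts with the PELP1 shRNA and 13 and 17 with the control shRNA (-1.32 ± 0.49, edgeR, FDR = 0.0173). In all 3 the groups were separate, and DESeq2 called none of them (adjusted p of 0.140, 0.151 and 0.210). Without PELP1 shRNA replicate 1 their adjusted p-values were 0.0587, 0.0684 and 0.153. SNORD110 and SNORD97 also missed the threshold without control shRNA replicate 2 (0.0829 and 0.150), and SNORD45A without control shRNA replicate 1 (0.137). The 83 box C/D rows with no host row had the highest summed ratio, 0.799 (0.700 to 0.911), and of their 4 tested genes 0 fell and 0 rose.

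**Figure D3:**
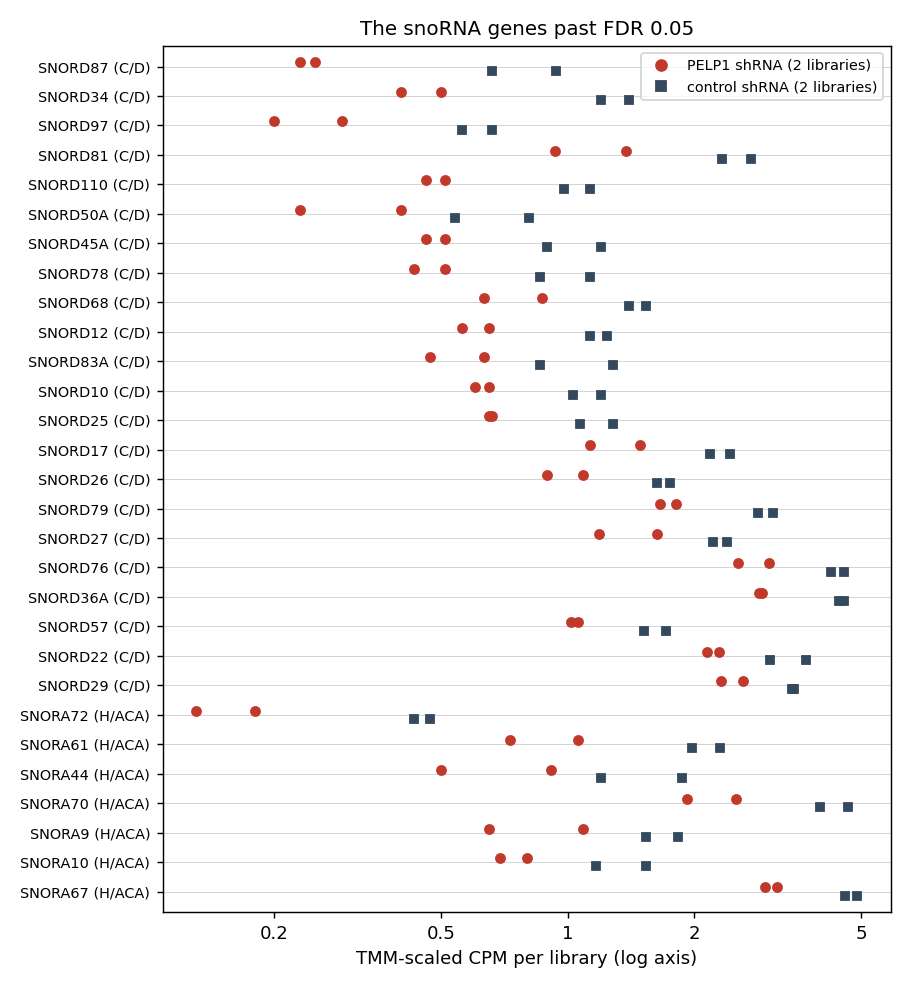
TMM-scaled CPM per library (log axis) of 29 of the 30 snoRNA genes past FDR 0.05, with box C/D genes above and box H/ACA genes below, each ordered by fold change. In every row both PELP1 shRNA libraries (circles) lie left of both control shRNA libraries (squares). The genes were chosen by the test on these same libraries, so this separation is no separate support.

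The box H/ACA genes that fell were spread over 6 hosts. SNORA70, a guide for the small-subunit rRNA in RPL10, had 2.52 and 1.92 CPM in the PELP1 shRNA libraries, against 3.98 and 4.66 CPM in the control shRNA libraries. The groups did not overlap, and its log2 fold change was -0.96 ± 0.19 (SE; edgeR, FDR = 1.06e-05). SNORA67 in EIF4A1, which encodes a helicase of translation initiation, had 2.95 and 3.16 CPM with the PELP1 shRNA and 4.58 and 4.90 CPM with the control shRNA (-0.64 ± 0.17, edgeR, FDR = 7.70e-04). It was the box H/ACA gene with the most counts, 409 over the 4 libraries.

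SNHG12, a non-coding host, held both SNORA61 and SNORA44. SNORA61 had 1.06 and 0.73 CPM with the PELP1 shRNA and 2.31 and 1.98 CPM with the control shRNA (log2 fold change -1.25 ± 0.27, SE; edgeR, FDR = 7.45e-05). SNORA44 had 0.50 and 0.91 CPM with the PELP1 shRNA and 1.20 and 1.87 CPM with the control shRNA (-1.15 ± 0.32, edgeR, FDR = 0.00166). In SNORA44 the libraries of each group lay far apart, and its call was lost when PELP1 shRNA replicate 1 (adjusted p = 0.0878) or control shRNA replicate 2 (0.131) was left out. SNORA9 in C7orf40, another non-coding host, had 1.09 and 0.65 CPM with the PELP1 shRNA and 1.54 and 1.83 CPM with the control shRNA (-0.93 ± 0.29, edgeR, FDR = 0.00481). Its adjusted p was 0.114 without PELP1 shRNA replicate 2 and 0.0713 without control shRNA replicate 2.

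SNORA10 in RPS2 and SNORA72 in RPL30 were the other 2 box H/ACA genes that fell. SNORA10 had 24 and 19 counts in the PELP1 shRNA libraries, against 36 and 30 in the control shRNA libraries (log2 fold change -0.85 ± 0.32, SE; edgeR, FDR = 0.0176). Only 65.9% of the 50-base windows over SNORA10 are unique in GRCh37, so part of its reads may have been lost as not unique. SNORA72 had 4 and 5 counts with the PELP1 shRNA and 10 and 12 with the control shRNA (-1.49 ± 0.58, edgeR, FDR = 0.0230). Its call ended when any 1 of the 4 libraries was left out (adjusted p of 0.0658 to 0.156), and that of SNORA10 without control shRNA replicate 1 (0.205) or PELP1 shRNA replicate 2 (0.0977).

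By host class, box H/ACA genes of non-coding hosts had the lowest summed ratio, 0.530 (95% counting interval 0.450 to 0.623). Genes of ribosomal protein hosts had 0.674 (0.605 to 0.750), and those of other protein-coding hosts 0.797 (0.736 to 0.863). Calls, all lower, were 3 of 5, 3 of 14 and 1 of 15 tested, beside 29.5% lower over all genes tested. The 3 calls in non-coding hosts all lay in SNHG12 and C7orf40. Their snoRNA genes, 1 of them box C/D, held 442 and 134 counts, beside 646 box H/ACA counts in non-coding hosts. Whether the host classes differ in their share of calls was not tested. The other protein-coding hosts held most box H/ACA reads, 2476 counts, and 2 hosts with many members supplied much of that. TAF1D, a subunit of the polymerase I factor SL1, holds 8 snoRNA genes, 6 of them H/ACA, and none of the 6 tested passed. All 8 lie within other TAF1D transcripts, outside the canonical one in GENCODE. EIF4A2 holds 4, and none of its 4 tested passed.

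SNORA63 (E3), known from frog oocytes for a part in pre-rRNA processing, lies in EIF4A2. It had 2.02 and 2.47 CPM in the PELP1 shRNA libraries, against 2.05 and 2.33 CPM in the control shRNA libraries. The groups overlapped, with a log2 fold change of 0.03 ± 0.22 (SE; edgeR, FDR = 0.930) that was -0.06 without control shRNA replicate 1 and -0.12 without PELP1 shRNA replicate 2. SNORA62 (E2), of the same kind, in RPSA, had 17 and 14 counts with the PELP1 shRNA and 25 and 21 with the control shRNA (-0.80 ± 0.37, edgeR, FDR = 0.0565). The abundant SNORA4 (-0.24 ± 0.21, edgeR, FDR = 0.321) and SNORA40 (-0.27 ± 0.25, edgeR, FDR = 0.371) did not pass either. U3, U8, U13, U14 and U17 genes were not analysed here.

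Per length, the tested genes of both classes had similar coverage, but all of them had passed the same filter on low counts. For each 1000 unique 50-base windows over a gene, the 43 placed and tested box C/D genes had a median of 594 counts in all libraries together and the 29 box H/ACA genes 462.6. Over all placed genes the medians were far apart, 7.69 for box C/D and 80.5 for box H/ACA. The placed box C/D genes include 101 SNORD113 to SNORD116 genes, whose median was 0.

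The brain-expressed, imprinted box C/D clusters were nearly silent apart from SNORD116. SNORD115 had 0 counts in all 43 rows, SNORD113 had a count in 1 of 7 rows and SNORD114 in 5 of 31 rows. Of the 29 SNORD116 rows 17 had a count, and they summed to 4.38 and 5.08 CPM in the PELP1 shRNA libraries (132 and 140 counts), against 5.26 and 5.48 CPM in the control shRNA libraries (123 and 141 counts). SNORD116-4 alone had 2.55 and 2.72 CPM with the PELP1 shRNA and 2.95 and 2.99 CPM with the control shRNA, and did not pass (log2 fold change -0.17 ± 0.19, SE; edgeR, FDR = 0.448). The copies of SNORD115 and of SNORD116 are partly alike. A median of 73.6% of the 50-base windows were unique over the placed SNORD115 genes and 77.2% over the placed SNORD116 genes. Over the placed SNORD113 and SNORD114 genes the median was 100%. Of all 119 placed members with 0 counts, 4 had no unique window, so that reads from them could not have been counted.

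Host genes were set beside their snoRNAs, since reads of unspliced or intron-retaining host RNA over a snoRNA also count to its row. Of 228 members placed in a host on the same strand, 203 lay in an intron of the canonical transcript, and 92 overlapped an exon of at least 1 host transcript. Of 132 host genes tested, 74 fell and 15 rose, beside shares of 29.5% lower and 28.6% higher over all genes tested. Among 45 hosts whose snoRNAs held at least 40 counts, the median log2 ratio of the pooled snoRNAs was -0.58 and the median of the hosts was -0.28. The snoRNA value was the lower one in 35 of the 45, with a median difference of -0.21. The host's fold change lay within the 95% counting interval of its snoRNAs in 29 hosts, above it in 14 and below it in 2. This split leaves out the error of the host value. DDX39B, 1 of the 2 below, had a host row of 0.46 and 0.51 CPM with the PELP1 shRNA. With the control shRNA that row had 0.56 and 0.78 CPM (log2 fold change -0.46 ± 0.41, SE). Across the 45 hosts the values were weakly related (Pearson 0.26, Spearman 0.17), and all of them share the same 4 libraries.

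Several non-coding hosts moved by as much as their snoRNAs. SNHG12 itself had 10.2 and 9.80 CPM in the PELP1 shRNA libraries, against 18.6 and 19.3 CPM in the control shRNA libraries (log2 fold change -0.92 ± 0.10, SE; edgeR, FDR = 6.29e-13), beside -0.93 for its 4 snoRNAs pooled. SNHG1 fell by 0.69 ± 0.05 (SE; edgeR, FDR = 6.02e-21), beside -0.58 for its snoRNAs. GAS5 had 44 and 45 CPM with the PELP1 shRNA and 65.1 and 57.7 CPM with the control shRNA (-0.46 ± 0.06, edgeR, FDR = 6.71e-10), beside -0.55 for its snoRNAs. In all 3 the host lay within the counting interval of the snoRNAs.

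Other hosts stood apart from their snoRNAs. RPL13A had 116.33 and 110.12 CPM in the PELP1 shRNA libraries, against 107.57 and 106.8 CPM in the control shRNA libraries (log2 fold change 0.08 ± 0.05, SE; edgeR, FDR = 0.131). Its 4 snoRNAs pooled had 1.76 and 1.74 CPM with the PELP1 shRNA and 3.47 and 3.54 CPM with the control shRNA, a ratio of 0.499 (0.387 to 0.642). RPL10 fell by 0.24 ± 0.04 (SE; edgeR, FDR = 5.38e-07), while its SNORA70 stood at -0.96 (-1.28 to -0.63). The non-coding host NCRNA00188 rose by 0.18 ± 0.04 (SE; edgeR, FDR = 2.80e-05), while its 3 snoRNAs pooled were at -0.30 (-0.58 to -0.02) and none of them passed. TPT1 rose by 0.63 ± 0.04 (SE; edgeR, FDR = 3.50e-24), and its SNORA31, which overlaps an exon of its canonical transcript, was at 0.23 (-0.41 to 0.88). The rows of EIF4A1 and RPL21 were listed at 0 in all 4 libraries and gave no host value.

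**Figure D4:**
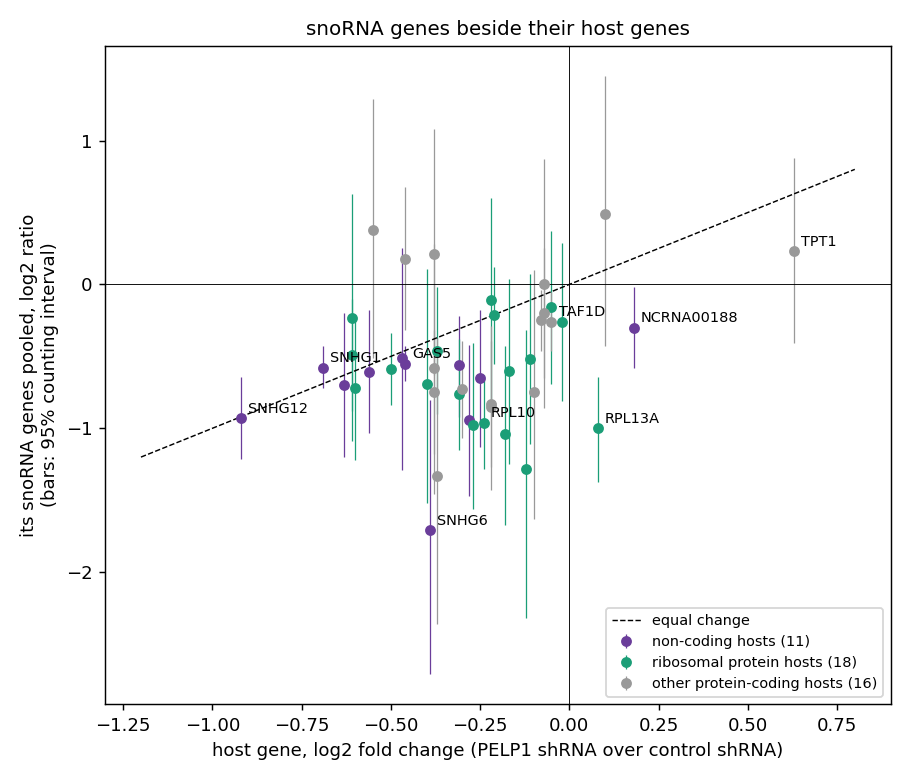
Log2 ratio of the pooled snoRNA genes of 45 hosts (95% counting interval as bars) against the log2 fold change of the host gene itself, PELP1 shRNA over control shRNA. Most points lie below the dashed line of equal change (35 of 45); SNHG12, SNHG1 and GAS5 lie near it, while RPL13A and SNHG6 lie far below it.

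Further hosts of called snoRNA genes fell as well. RPL7A, RPS2, RPL30, SNHG5, SNHG6 and ZNFX1-AS1 fell by 0.50, 0.61, 0.42, 0.56, 0.39 and 0.63 on the log2 scale (edgeR, each past FDR 0.05). RPL13, RPL3, EIF4G2, RABGGTB, SNX5 and C7orf40 fell by 0.27, 0.31, 0.37, 0.38, 0.22 and 0.28 (edgeR, each past FDR 0.05). The pooled snoRNAs of RPS2 stood at -0.49, above the value of their host, and those of the other hosts stood below theirs. SNHG6, EIF4G2 and RPL13 lay above the counting interval of their snoRNAs (-1.71, -1.33 and -0.98). C7orf40, SNX5 and RPL3 also did (snoRNAs at -0.94, -0.83 and -0.76). RPS2, RPL7A, RPL30, SNHG5, ZNFX1-AS1 and RABGGTB lay within it, the last 5 with snoRNAs at -0.59, -1.52, -0.61, -0.70 and -0.75. TAF1D (log2 fold change -0.05 ± 0.07, SE; edgeR, FDR = 0.566), EIF4A2 (-0.08 ± 0.04, FDR = 0.0764) and RPSA (-0.60 ± 0.23, FDR = 0.150) did not pass.

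At the RNA level, genes for proteins of snoRNA particles moved in both directions, from -0.59 for RRP9 to 0.58 for NUFIP1 on the log2 scale. Of 36 genes for core proteins, assembly and trimming factors and proteins of the U3 processome, 14 fell and 8 rose, with a median log2 fold change of -0.04. Over all genes tested 29.5% fell and 28.6% rose. In the box C/D core, FBL fell by 0.16 ± 0.04 (SE; edgeR, FDR = 4.45e-04), and the scaffold proteins NOP56 and NOP58 fell by 0.30 ± 0.04 and 0.26 ± 0.04 (FDR = 4.93e-10 and 6.87e-08). NHP2L1, the box C/D protein that binds the RNA first, did not pass (0.01 ± 0.04, edgeR, FDR = 0.822). In the box H/ACA core, DKC1 fell by 0.10 ± 0.04 (SE; edgeR, FDR = 0.0166), NHP2 by 0.20 ± 0.05 (FDR = 3.05e-04) and NOP10 by 0.13 ± 0.05 (FDR = 0.0214). GAR1 did not pass (-0.09 ± 0.07, edgeR, FDR = 0.257).

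The summed core levels were 729 and 728.7 CPM of the 4 box C/D proteins in the PELP1 shRNA libraries, against 833.4 and 836.6 CPM in the control shRNA libraries. The 4 box H/ACA proteins summed to 505.9 and 508.1 CPM with the PELP1 shRNA and 551.3 and 550.6 CPM with the control shRNA. FBL, DKC1 and NOP10 missed the threshold when scaled by library size alone (adjusted p of 0.127, 0.845 and 0.542), and DKC1 and NOP10 also did so with the replicate number as a block (0.0631 and 0.0626). DKC1 and NOP10 further missed it without PELP1 shRNA replicate 1 (0.0757 and 0.0758), PELP1 shRNA replicate 2 (0.0945 and 0.116) or control shRNA replicate 2 (0.0812 and 0.108).

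Among assembly factors the changes ran in both directions, with 5 of 16 genes higher and 5 lower. These counts stood near the shares over all genes tested, 28.6% higher and 29.5% lower. NUFIP1 (log2 fold change 0.58 ± 0.08, SE; edgeR, FDR = 1.51e-08) and PIH1D1 (0.36 ± 0.05, FDR = 4.27e-09), which bring box C/D proteins together, rose. The ATPase RUVBL1 of the same machinery also rose (0.50 ± 0.04, edgeR, FDR = 1.66e-17). NAF1, which loads box H/ACA proteins, fell by 0.41 ± 0.10 (SE; edgeR, FDR = 3.75e-04), as did TGS1, the cap hypermethylase, by 0.37 ± 0.06 (FDR = 7.64e-07). RRP9, a protein of the U3 particle, fell by 0.59 ± 0.05 (SE; edgeR, FDR = 9.81e-15), from a list of 5 of which 2 fell and 1 rose.

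Short RNA genes with other symbols gave few values. Of 41 rows for spliceosomal, Cajal body, vault, Y and similar RNAs, some of which are themselves guide RNAs with the same boxes, 28 had a count and 7 were tested. Of these 7, 3 fell and 0 rose, beside 29.5% lower and 28.6% higher over all genes tested. SCARNA12, a guide RNA of Cajal bodies, had 4.41 and 3.37 CPM in the PELP1 shRNA libraries, against 5.86 and 6.22 CPM in the control shRNA libraries (log2 fold change -0.63 ± 0.15, SE; edgeR, FDR = 2.73e-04). RNU86, a box C/D RNA under another symbol (-0.58 ± 0.25, FDR = 0.0419) and RPPH1, the RNA of RNase P (-0.68 ± 0.30, FDR = 0.0473), passed by a small margin in the same edgeR test. Summed over the 41 rows the levels were 11.5 and 8.74 CPM with the PELP1 shRNA and 14.3 and 13.99 CPM with the control shRNA. SCARNA12 held the most of these reads. Whether fewer short RNAs were recovered from the PELP1 shRNA cells was not tested.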

How the data were processed

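Total RNA was purified on silica columns, made into Illumina TruSeq libraries and read as 50-base single-end reads, per the labels' protocols. Such columns retain RNAs of snoRNA length poorly, and a row may hold mature snoRNA, precursor or host intron reads. The submitters' processing notes name hg19, TopHat2 2.0.8b and HTSeq. For HTSeq no version, strand setting or annotation is given in the sources used here. The values deposited by the authors are raw read counts per gene symbol. The 5 rows that name no gene were left out; alignments that were not unique made up 29.38% to 30.82% of the file total, reads in no gene 8.83% to 9.08% and ambiguous reads 0.58% to 0.60%.

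The whole count table was fitted in R 4.3.3 with edgeR 4.0.16 (quasi-likelihood, robust, TMM, filterByExpr with a minimum count of 10, shRNA group as the only term, two-sided), which tested 14972 genes. A Benjamini-Hochberg FDR under 0.05 over all genes tested was a call. Levels are TMM-scaled CPM, and SE is the fold change over the root of F. Alternatives were DESeq2 1.42.0 (the labels name a DESeq pipeline), limma-voom 3.58.1, other scalings and filters, each library left out and a replicate block. A crossed block, an assumed biological variation of 20% and class sums without GAS5 and SNHG1 members were added after the data were seen. Replicates differed by a chi-square per degree of freedom of 2.37 (PELP1 shRNA) and 2.47 (control shRNA), and by 1.04 and 1.08 over snoRNA genes alone, which is counting noise. The fit was tested on simulated counts.

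Members were matched to RefSeq (GRCh38.p14) by symbol (353) or synonym (11), for names and hosts only. Positions and sequences came from GRCh37 with GENCODE v44lift37 (303 members). A host is the gene whose body contains the member, on the same strand in GENCODE (228) or from RefSeq without strand (48). Counts of a host's members were pooled, with 95% exact intervals. Named were PELP1, up to 10 called members a class and direction, the 5 with most counts a class, members known for pre-rRNA cleavage, core particle proteins, their hosts, and up to 3 other called particle genes a direction. One called box C/D gene that this rule takes is counted in the totals and not reported here; called genes outside the rule are mostly shown only in the plot of called genes. Members and lists were chosen with earlier results of these data known.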

Additional observations from a re-analysis of the deposited data

How the results depend on the processing

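None of the settings tried gave a member called higher in either class. Over the whole table, genes called lower numbered 4424 in the main fit, 3384 with DESeq2 and 640 with an assumed variation of 20%. Of 23 box C/D genes called lower, 14 were called with a filter of at least 1 CPM in 2 libraries (fewer genes tested), 2 with DESeq2, 3 with an assumed variation of 20%, and 10 to 20 without 1 library. Of 7 box H/ACA genes, 3 were called with DESeq2, 3 with the assumed variation and 5 to 6 without 1 library. The class ratios were 0.711 and 0.743 with upper-quartile factors and 0.730 and 0.762 with library size alone. Hosts called higher numbered 27 with library size alone and 0 with the assumed variation, which left 2 lower.

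Particle protein genes called higher numbered 14 with upper-quartile factors, 17 with library size alone, 5 with DESeq2, 0 with the assumed variation and 4 to 7 without 1 library; the assumed variation left 0 lower. Of 3 other short RNAs called lower, 1 was called with upper-quartile factors, library size alone or DESeq2, 0 with the assumed variation and 1 to 2 without 1 library. With no filter 1 was called higher, as it was in 1 of the sets without 1 library (0 to 1). GAR1 turned to 0.00 with library size alone. Without 1 library NHP2L1 ranged from -0.00 (without control shRNA replicate 1 or PELP1 shRNA replicate 1) to 0.03. SNORA63 ranged from -0.12 (without PELP1 shRNA replicate 2) and -0.06 (without control shRNA replicate 1) to 0.17. The cause was not tested.

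With the replicate number as a block, 22 box C/D and 7 box H/ACA genes were called lower, and 5 particle protein genes were higher. Same-numbered libraries did not deviate together (correlation 0.016 over genes tested, -0.15 at 5 CPM or more). What they share beyond the number is not stated in the labels. With the numbers crossed, 23 and 7 snoRNA genes were called lower.

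Few reads per member limit these results: a median member tested held 89 counts in 4 libraries.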
